A study of Mus musculus with 12 samples.

Results

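The mRNA levels of 8 chemokine receptor genes, Ccr1, Ccr2, Ccr7, Ccrl2, Cx3cr1, Cxcr2, Cxcr3 and Cxcr4, were examined in mouse tumor MDSCs after treatment with 2 HDAC inhibitors. The genes were picked by symbol from a list, made with earlier results of these data known, and are 8 of the 24346 gene symbols measured. Cxcr2 and Cxcr4 were higher under MS-275 and CXD101 in M-MDSCs and in PMN-MDSCs, and Ccr7 was lower in all 4 of these comparisons, although in M-MDSCs it reached 1 FPKM mainly in the vehicle libraries. Ccrl2 was lower under the inhibitors in PMN-MDSCs but not in M-MDSCs. Ccr1 and Ccr2, the most abundant receptors of PMN-MDSCs and M-MDSCs under vehicle, moved by less than 1.5-fold.

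Chemokine receptors are G protein-coupled receptors that steer leukocytes along gradients of chemokines through inhibitory G proteins, while receptor kinases and arrestins switch them off. CCR2, the receptor of CCL2, is known for the exit of inflammatory monocytes from bone marrow, and CXCR2 for the release and recruitment of neutrophils. CXCR4, the receptor of CXCL12, holds immature myeloid cells in bone marrow, and CCR7 directs dendritic cells to lymph nodes.

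RNA-seq was performed on MDSCs (myeloid-derived suppressor cells, immature myeloid cells that dampen immune responses) sorted by FACS from tumors of wild-type mice. The tumors were grown from Hepa 1-6, a mouse hepatoma line, in the livers of female C57BL/6J mice aged 6 to 8 weeks. Both gates took CD11b+ cells, M-MDSCs being those with high Ly-6C but without Ly-6G and PMN-MDSCs those with Ly-6G and intermediate Ly-6C. Each cell type came from mice given vehicle, MS-275 or CXD101, inhibitors of the histone deacetylases HDAC1-3, with 2 libraries for each of the 6 groups and 12 in all. The inhibitors were injected at 5 mg/kg daily for 10 days from day 10 after inoculation, and tumors were taken on day 21. This schedule is stated for the experiment with M-MDSCs, and only mice with a high MDSC share in blood were used. The libraries of M-MDSCs are described as biological replicates, whereas for PMN-MDSCs no source used here says so, and their p-values then measure only the spread between libraries. Whether cells of several mice were pooled is not given in the sources used here.

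Values are FPKM as the authors deposited them, that is, fragment numbers per kilobase of transcript, scaled to a library size. The factors that would level the median gene ratio between libraries were already close, 1.008 to 1.012 in M-MDSC and 1.011 to 1.017 in PMN-MDSC libraries. The deposited values may therefore have been scaled between libraries, which was not tested, and scaling them again by such factors could change little. From the steps between low FPKM values, the library size behind them was estimated at 9090000 to 11630000 reads in M-MDSC libraries and 7580000 to 8850000 in PMN-MDSC libraries. This is the sequencing depth only if each library was scaled to its own total. FPKM summed to 564078 to 596407 in M-MDSC libraries and 656932 to 860841 in PMN-MDSC libraries. In PMN-MDSCs, S100a8 and S100a9, which encode abundant calcium-binding proteins of neutrophils and monocytes, took 10.2% and 13.7% of this sum under vehicle and 27.3% to 30.9% under the inhibitors. The 2 libraries of a group differed in every pair and correlated across genes with r of 0.992 to 0.995. Cell identity was checked with marker genes: Retnlg, a neutrophil marker, was 1.64 to 5.14 FPKM in all 6 M-MDSC libraries and 286.7 to 562.4 in all 6 PMN-MDSC libraries. F13a1, a monocyte marker, was 19.9 to 42.7 FPKM in M-MDSC and 3.24 to 5.49 in PMN-MDSC libraries. Csf1r, a receptor of the monocyte and macrophage lineage, did not separate the gates, at 123 FPKM in both vehicle libraries of M-MDSCs and 160 and 145 in those of PMN-MDSCs. Ly6g, the gene of the gated Ly-6G, was not analysed here. In bulk RNA, fewer cells of a type and less RNA per cell cannot be told apart.

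Under vehicle, the receptor genes of M-MDSCs were led by Ccr2 at 142 FPKM ± 7.19 (SD, n = 2), followed by Ccr1 at 78.6 ± 1.01 and Cxcr4 at 42.1 ± 1.22. Ccrl2 at 2.97 FPKM, Cxcr2 at 2.96 and Ccr7 at 2.23 formed a second tier, and the libraries of Ccrl2 and Cxcr2 overlapped. Cx3cr1 and Cxcr3 were at 0.52 and 0.24 FPKM. In PMN-MDSCs, Ccr1 led at 218 FPKM ± 17.1 (SD, n = 2), followed by Cxcr2 at 94.9 ± 20.0, Cxcr4 at 70.1 ± 5.30, Ccr2 at 38.2 ± 3.57 and Ccrl2 at 25.1 ± 1.29. Ccr7 at 9.02, Cx3cr1 at 1.35 and Cxcr3 at 0.20 FPKM were lowest, and no neighbors in this order overlapped. Cxcr2 moved to the top of the PMN-MDSC order under MS-275 at 310.8 FPKM, above Ccr1 at 266, whereas under CXD101 Ccr1 at 269 stayed above Cxcr2 at 253.

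**Figure D1:**
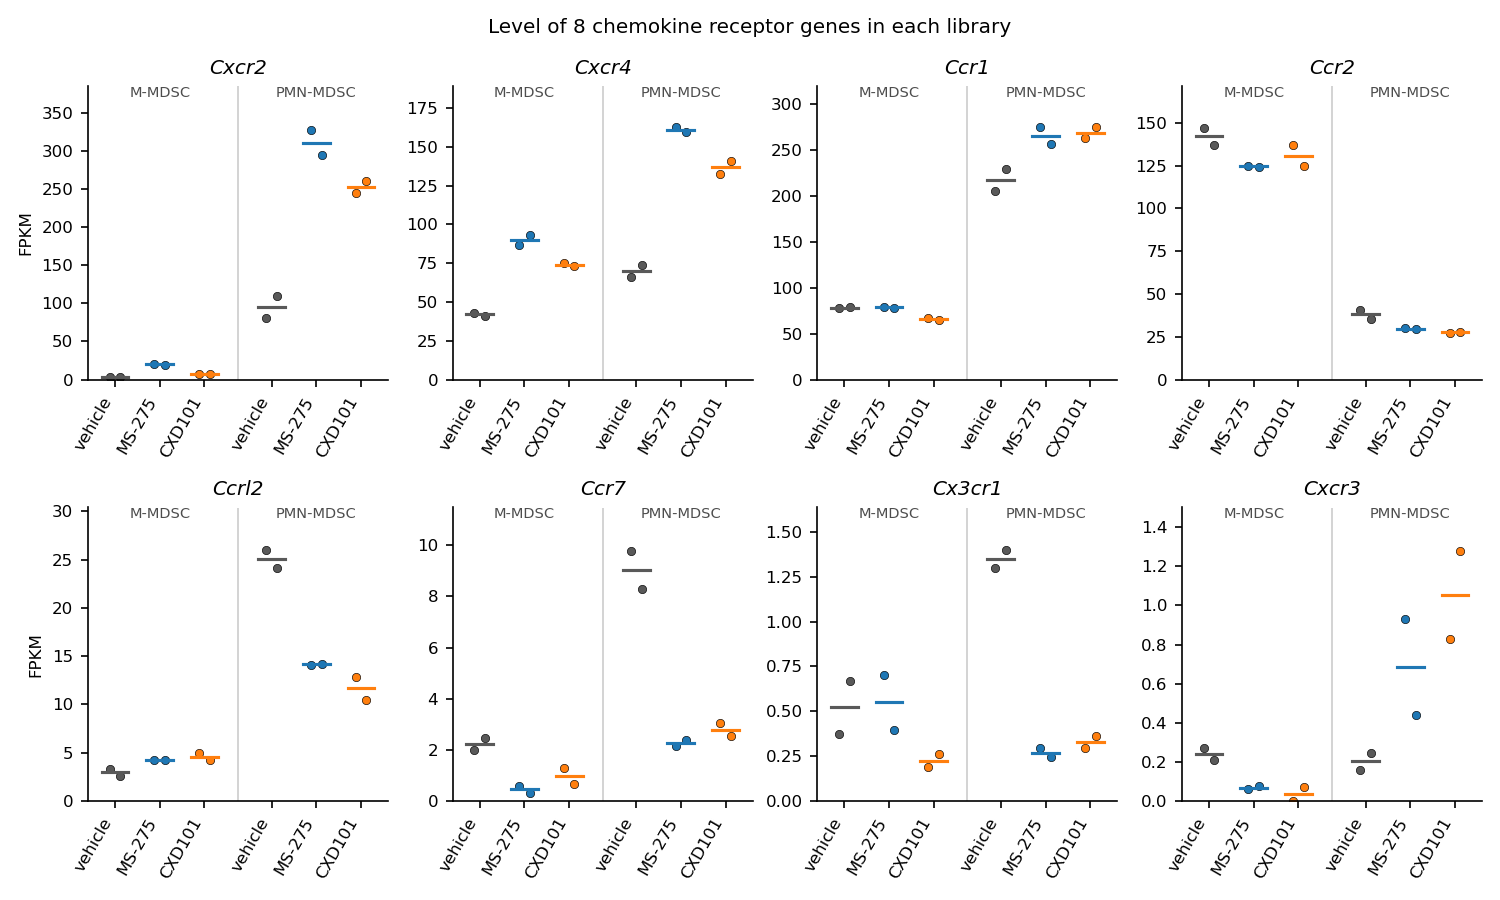
FPKM (vertical axes, each starting at 0) of the 8 receptor genes in every library, by cell type and treatment on the horizontal axis. Points are libraries and lines are group means, and Cxcr2 and Cxcr4 sit above their vehicle libraries under each inhibitor in each cell type, while Ccr7 sits below them.

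The difference between the cell types was tested under vehicle with limma on log2(FPKM + 1), a scale that understates changes of low genes. A gene was tested where FPKM reached 1 in at least 2 libraries, and was called at a Benjamini-Hochberg adjusted p under 0.05 over all genes tested and a fold change above 1.5. Of all 11662 genes tested between PMN-MDSCs and M-MDSCs, 34% were called, and of the 8 receptors 7 were tested and 7 called. Cxcr2 showed the widest gap, 2.81 and 3.11 FPKM in M-MDSCs against 80.8 and 109.1 in PMN-MDSCs, a log2 difference of 4.58 (SE 0.12, adjusted p = 1.12e-09). Ccrl2 (2.72), Ccr7 (1.64), Ccr1 (1.46), Cxcr4 (0.72) and Cx3cr1 (0.63) were also higher in PMN-MDSCs on this log2 scale. Ccr2 was the receptor lower in PMN-MDSCs, by a log2 difference of -1.87 (SE 0.07, adjusted p = 1.16e-08). The call of Cx3cr1 rested on the vehicle libraries of PMN-MDSCs, the only ones of all 12 above 1 FPKM, and was lost with quantile normalization (0.53) and without replicate 1 of the M-MDSC vehicle group (0.49). 

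Cxcr2 encodes the receptor of CXCL1, CXCL2, CXCL3 and PPBP. It lies on the plus strand of chromosome 1 (GRCm38, 74153989 to 74161246), a protein-coding gene with 2 annotated transcripts of 2220 and 3046 bases and no overlapping gene. In M-MDSCs, Cxcr2 was 2.81 and 3.11 FPKM under vehicle, 20.8 and 19.7 under MS-275 and 8.0 and 7.75 under CXD101. Its level in PMN-MDSCs was 80.8 and 109.1 FPKM under vehicle, 327.5 and 294.2 under MS-275 and 244.7 and 260.8 under CXD101. In each cell type both libraries of each inhibitor lay above both vehicle libraries. Both MS-275 libraries also lay above both CXD101 libraries, a difference called in M-MDSCs but not in PMN-MDSCs. The log2 difference to vehicle in M-MDSCs was 2.42 under MS-275 (SE 0.09, limma adjusted p = 1.71e-06) and 1.16 under CXD101 (SE 0.09, adjusted p = 1.39e-04). In PMN-MDSCs it was 1.71 under MS-275 (SE 0.13, adjusted p = 4.18e-05) and 1.42 under CXD101 (SE 0.13, adjusted p = 1.60e-04).

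The rise of Cxcr2 in M-MDSCs came with changes in the neutrophil marker list, whose 9 genes other than Cxcr2 were all tested. Of these, 4 were higher and 3 lower under MS-275, and 4 higher and 1 lower under CXD101, where 17.5% and 8.13% of all genes tested were called. Their summed level was 10950 to 11680 FPKM under vehicle, 21760 to 25700 under MS-275 and 21250 to 22540 under CXD101, and none of the 9 was at 0 in a whole group. Most of this sum was S100a8 and S100a9. Their means were 6063 and 4892 FPKM under vehicle, 11830 and 10950 under MS-275 and 10820 and 10580 under CXD101. The 3 lower under MS-275 were Ltf (87.4 to 30.5 FPKM), Camp (67.3 to 33.2) and Mmp9 (8.85 to 3.63). Mmp9 (4.63) was the 1 lower under CXD101. Csf3r, the receptor of granulocyte colony-stimulating factor, was 8.75 and 10.5 FPKM under vehicle and 20.6 to 24.9 under the inhibitors. Retnlg was 1.64 and 5.14 FPKM under vehicle, 2.97 and 2.95 under MS-275 and 1.92 and 4.31 under CXD101, with overlapping libraries. The progenitor list (Mpo, Elane, Prtn3, Cd34 and others) summed to 1487 to 1504 FPKM under vehicle, 4173 to 4457 under MS-275 and 3501 to 3643 under CXD101, with 6 of 7 tested genes higher under each inhibitor (Gata2 among them reached 1 FPKM under the inhibitors only) and none of the 8 listed genes at 0 in a whole group. Of the eosinophil and basophil list, 7 of 10 genes were tested in M-MDSCs, and 4 were higher under MS-275 and 5 under CXD101. Prg2, an eosinophil granule gene, was 10.6 and 6.56 FPKM under vehicle, 113 and 133 under MS-275 and 94.0 and 101.7 under CXD101. That list summed to 158 to 193 FPKM under vehicle, 386 to 417 under MS-275 and 376 to 409 under CXD101, and none of its genes was at 0 in a whole group. In PMN-MDSCs, where Cxcr2 also rose, Prg2 was 34.5 and 34.7 FPKM under vehicle and 19.2 to 28.3 under the inhibitors. There the eosinophil and basophil list had 1 gene higher and 3 lower under MS-275, and 1 each way under CXD101. Of the neutrophil list, 6 of 9 were higher under each inhibitor and 1 lower under MS-275. Of the progenitor list, 4 and 3 of 7 were higher under MS-275 and CXD101, and 1 lower under MS-275. Of all genes, 28.7% and 21.4% were called. The neutrophil sum, again mostly S100a8 and S100a9, was 70600 to 96530 FPKM under vehicle and 241500 to 276900 under the inhibitors. The part of neutrophils, progenitors, eosinophils and basophils in the Cxcr2 result was not tested.

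Cxcr4 encodes the receptor of CXCL12 and lies on the minus strand of chromosome 1 (128588199 to 128592293), with 2 annotated transcripts and no overlapping gene. In M-MDSCs it was 43.0 and 41.3 FPKM under vehicle, 86.8 and 93.4 under MS-275 and 75.2 and 72.9 under CXD101. The PMN-MDSC libraries held 66.4 and 73.9 FPKM under vehicle, 163 and 159 under MS-275 and 133 and 141 under CXD101. The inhibitor libraries lay above the vehicle libraries in each cell type, and the level of treated M-MDSCs reached or passed that of vehicle PMN-MDSCs, where the CXD101 libraries of the former overlapped the vehicle libraries of the latter. The log2 difference to vehicle was 1.08 under MS-275 (SE 0.06, adjusted p = 1.01e-05) and 0.80 under CXD101 (SE 0.06, adjusted p = 1.39e-04) in M-MDSCs. In PMN-MDSCs it was 1.19 (SE 0.07, adjusted p = 1.48e-05) and 0.96 (SE 0.07, adjusted p = 6.41e-05) by limma. The calls of Cxcr4 under CXD101 lay below a fold change of 2 in both cell types. 

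Because Cxcr2 and Cxcr4 rose in all 4 comparisons and Ccrl2 did not, the sequences just before their transcription starts are shown. Each window spans 250 to 11 bases before the RefSeq start (GRCm38.p6), written 5′ to 3′ on the strand of the gene, with matches to any of 5 short motifs in capitals. The windows are chr1:74153744-74153983 on the plus strand for Cxcr2, chr1:128592310-128592549 on the minus strand for Cxcr4 and chr9:111057529-111057768 on the minus strand for Ccrl2, the last before the most upstream of 3 listed starts.
Cxcr2: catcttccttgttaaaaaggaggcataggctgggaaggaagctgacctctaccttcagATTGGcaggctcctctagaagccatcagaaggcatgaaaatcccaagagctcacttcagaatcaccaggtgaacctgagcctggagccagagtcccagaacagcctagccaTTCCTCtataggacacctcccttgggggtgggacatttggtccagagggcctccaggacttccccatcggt
Cxcr4: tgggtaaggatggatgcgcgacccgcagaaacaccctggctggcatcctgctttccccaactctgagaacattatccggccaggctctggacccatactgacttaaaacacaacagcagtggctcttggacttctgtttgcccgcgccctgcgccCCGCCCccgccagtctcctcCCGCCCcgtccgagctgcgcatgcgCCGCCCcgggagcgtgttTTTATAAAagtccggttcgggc
Ccrl2: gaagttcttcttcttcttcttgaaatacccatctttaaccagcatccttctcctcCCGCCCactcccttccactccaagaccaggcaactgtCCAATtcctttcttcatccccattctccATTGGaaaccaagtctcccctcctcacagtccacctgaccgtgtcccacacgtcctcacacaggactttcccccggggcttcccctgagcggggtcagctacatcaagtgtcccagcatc
The motifs were searched on both strands. They were the TATA box with the letters TATAAA, the GC box with the letters GGGCGG and the CCAAT box. Also searched were the core of PU.1 and other ETS factors with the letters GAGGAA and the C/EBP core with the letters TTGCNNAA. The Cxcr4 window, at 62.1% GC, held 3 GC boxes and 2 overlapping TATA matches on opposite strands close to the start. The Cxcr2 window, at 53.8% GC, held 1 CCAAT box and 1 PU.1 core, and the Ccrl2 window, at 54.2% GC, held 1 GC box and 2 CCAAT boxes. Over all 32851 windows of this kind, 12.1% held the TATA box, 31.3% the GC box, 33% the CCAAT box, 22.3% the PU.1 core and 9.29% the C/EBP core, and the median GC content was 52.1%. Among the 7 receptors with a listed window, 1, 2, 3, 2 and 0 held these motifs in that order, and no motif was shared by the windows of Cxcr2 and Cxcr4.

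Ccr7 encodes the receptor of CCL19 and CCL21 and lies on the minus strand of chromosome 11 (99144196 to 99155077), with 1 annotated transcript of 1978 bases. In M-MDSCs it was 1.99 and 2.46 FPKM under vehicle, 0.60 and 0.32 under MS-275 and 1.297 and 0.66 under CXD101, which corresponds to about 37 and 44, 12 and 5, and 24 and 11 reads. PMN-MDSCs had 9.77 and 8.28 FPKM under vehicle, 2.14 and 2.38 under MS-275 and 3.05 and 2.54 under CXD101, or 154 and 126, 29 and 34, and 46 and 35 reads. All inhibitor libraries lay below the vehicle libraries of their cell type. The log2 difference to vehicle in PMN-MDSCs was -1.62 under MS-275 (SE 0.14, limma adjusted p = 7.20e-05) and -1.40 under CXD101 (SE 0.14, adjusted p = 2.26e-04). In M-MDSCs it was -1.15 under MS-275 (SE 0.20, adjusted p = 0.00213) and -0.72 under CXD101 (SE 0.20, adjusted p = 0.0336). The call under CXD101 in M-MDSCs was lost at a pseudocount of 0.1 (adjusted p = 0.0708), without a filter (0.0693), and without vehicle replicate 1 (0.0820), vehicle replicate 2 (0.156) or CXD101 replicate 2 (0.158). In M-MDSCs Ccr7 reached 1 FPKM only in the vehicle libraries and CXD101 replicate 1, so that it passed the filter through the group where it was high and a lower value was in part built in.

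Beside Ccr7, several genes of the dendritic cell list were lower. Ccl17 and Ccl22, chemokines of activated dendritic cells and macrophages, and Fscn1, an actin-bundling gene of mature dendritic cells, were lower in all 4 comparisons, and Cacnb3 was higher under MS-275 in each cell type. Cd209a was 4.30 and 2.07 FPKM in vehicle PMN-MDSCs and at most 0.10 under the inhibitors, and passed the filter only through vehicle. In M-MDSCs under MS-275, Fscn1 and Cacnb3 likewise reached 1 FPKM in only 1 of the 2 groups compared. The summed level of the 10 listed genes was 44.5 to 59.4 FPKM under vehicle, 6.08 to 7.08 under MS-275 and 12.4 to 13.4 under CXD101 in M-MDSCs. In PMN-MDSCs it was 178 to 204 FPKM under vehicle, 31.6 to 34.1 under MS-275 and 29.9 to 36.9 under CXD101. Most of the sum under vehicle was Ccl17 and Ccl22, with means of 35.1 and 12.6 FPKM in M-MDSCs and 119.5 and 56.9 in PMN-MDSCs. The defining genes Flt3 and Zbtb46 were below 1 FPKM in all 12 libraries, and Siglech was at 0 in both libraries of the M-MDSC vehicle, M-MDSC CXD101 and PMN-MDSC MS-275 groups. Cd209a was at 0 in all 4 treated M-MDSC libraries. Clec9a, also of the list and not tested, went from a mean of 0.48 FPKM to 0.60 under MS-275 and 0.95 under CXD101 in PMN-MDSCs. Its means in M-MDSCs were 0.20, 0.14 and 0.17 FPKM under vehicle, MS-275 and CXD101. Genes of the macrophage list were lower as well, with 6 of its 8 genes called lower by MS-275 and 4 by CXD101 in M-MDSCs and 6 by either in PMN-MDSCs, where Apoe was higher under MS-275. Under MS-275 and CXD101, 17.5% and 8.13% of all genes were called in M-MDSCs and 28.7% and 21.4% in PMN-MDSCs. In M-MDSCs Apoe went from a mean of 3.62 FPKM to 5.70 and 5.60 under MS-275 and CXD101. Adgre1 went from 40.2 to 56.1 and 45.0 there, and neither gene was called. Mrc1, the mannose receptor, was 79.9 and 81.3 FPKM in vehicle M-MDSCs, 16.4 and 13.5 under MS-275 and 65.0 and 77.4 under CXD101, and in PMN-MDSCs 50.6 and 48.0, 3.32 and 2.96, and 20.1 and 23.7. Trem2 in PMN-MDSCs was 54.9 and 46.0 FPKM under vehicle and 10.6 to 20.3 under the inhibitors. The list summed to 192 to 196 FPKM under vehicle, 101 to 109 under MS-275 and 152 to 171 under CXD101 in M-MDSCs, and to 236 to 253, 140 to 156 and 132 to 144 in PMN-MDSCs, and none of its genes was at 0 in a whole group. Of its calls, up to 3 per comparison (among C1qa, C1qb, C1qc and Maf) reached 1 FPKM in vehicle only. The part of dendritic cells and macrophages in the Ccr7 and Cx3cr1 results was not tested.

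Ccrl2 encodes an atypical receptor that binds chemerin without signaling through G proteins and presents it to neighboring cells. Its gene is on chromosome 9, minus strand (111054486 to 111057519), 11.7 kb from the neutrophil granule gene Ltf. In PMN-MDSCs Ccrl2 was 26.0 and 24.1 FPKM under vehicle, 14.1 in both libraries under MS-275 and 12.8 and 10.5 under CXD101, so that the inhibitor libraries lay below the vehicle libraries. M-MDSCs had 3.35 and 2.60 FPKM under vehicle, 4.24 and 4.30 under MS-275 and 4.93 and 4.22 under CXD101, all 4 above vehicle. The log2 difference to vehicle in PMN-MDSCs was -0.78 under MS-275 (SE 0.11, adjusted p = 6.63e-04) and -1.05 under CXD101 (SE 0.11, adjusted p = 2.62e-04). The M-MDSC values were 0.41 (SE 0.13, adjusted p = 0.0320) and 0.49 (SE 0.13, adjusted p = 0.0294), under the 1.5-fold limit. The CXD101 value in M-MDSCs passed that limit at a pseudocount of 0.1 (0.61) and without vehicle replicate 1 (0.63). Its neighbor Ltf was 693 and 760 FPKM in vehicle PMN-MDSCs and 4077 to 4981 under the inhibitors, opposite to Ccrl2. 

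Ccr2 lies on the plus strand of chromosome 9 (124101950 to 124113557), with 4 annotated transcripts of 2265 to 5728 bases. The PMN-MDSC libraries held 40.7 and 35.7 FPKM under vehicle, 30.0 and 29.4 under MS-275 and 27.5 and 28.0 under CXD101. The inhibitor libraries lay below vehicle, by a log2 difference of -0.35 (SE 0.08, adjusted p = 0.00934) under MS-275 and -0.44 (SE 0.08, adjusted p = 0.00402) under CXD101, within the 1.5-fold limit. In M-MDSCs the vehicle libraries were at 147 and 137 FPKM and the treated ones at 124 to 137, with log2 differences of -0.19 (SE 0.07, adjusted p = 0.0456) and -0.12 (SE 0.07, adjusted p = 0.228) under MS-275 and CXD101. Csf1r moved with Ccr2 in PMN-MDSCs, from 160 and 145 FPKM under vehicle to 59.9 to 72.5 under the inhibitors. The other monocyte genes did not share one direction, since Ly6c2 was 511 and 455 FPKM under vehicle and 1418 to 1677 under the inhibitors. The monocyte list without Ccr2 summed to 1068 to 1070 FPKM under vehicle and 1839 to 2103 under the inhibitors in PMN-MDSCs, and to 1707 to 1766 and 2403 to 2906 in M-MDSCs, and none of its 6 genes was at 0 in a whole group. Most of this rise was Ly6c2, also a gene of the gated Ly-6C. Its means in M-MDSCs were 1333 FPKM under vehicle, 2421 under MS-275 and 2076 under CXD101. Of 5 tested monocyte genes, 1 was higher and 1 lower under each inhibitor in PMN-MDSCs, and 2 were higher and 0 lower in M-MDSCs. Under MS-275 and CXD101, 28.7% and 21.4% of all genes were called in PMN-MDSCs and 17.5% and 8.13% in M-MDSCs. The part of monocytes in the Ccr2 values was not tested.

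Ccr1, the receptor of CCL3, CCL5, CCL6 and CCL9 among others, lies on the minus strand of chromosome 9 (123962124 to 123968692), 133.3 kb from Ccr2. The PMN-MDSC libraries held 206 and 230 FPKM under vehicle, 275.2 and 257 under MS-275 and 264 and 275.2 under CXD101, with the inhibitor libraries above vehicle. The log2 differences of 0.29 (SE 0.07, adjusted p = 0.0123) and 0.31 (SE 0.07, adjusted p = 0.0115) were under the 1.5-fold limit. M-MDSCs had 77.9 and 79.3 FPKM under vehicle, 79.5 and 78.5 under MS-275 and 67.2 and 64.6 under CXD101. The log2 difference there was 0.01 under MS-275 (95% interval -0.12 to 0.14) and -0.25 under CXD101 (SE 0.06, adjusted p = 0.0151), again under the limit.

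Cx3cr1, the receptor of fractalkine, lies on the minus strand of chromosome 9 (119901616 to 120069879), and 9 other annotated genes overlap its longest model. In PMN-MDSCs it was 1.299 and 1.40 FPKM under vehicle, 0.29 and 0.24 under MS-275 and 0.30 and 0.36 under CXD101. On the longest of its 3 transcripts this is about 49 and 52 reads under vehicle and 8 to 12 under the inhibitors. It passed the filter only through the vehicle libraries, so that a difference was built in, and its log2 differences were -0.89 (SE 0.17) under MS-275 and -0.82 (SE 0.17) under CXD101 (limma adjusted p = 0.00287 and 0.00532). In M-MDSCs it stayed at 0.19 to 0.70 FPKM, where the vehicle and MS-275 libraries overlapped and the CXD101 libraries lay below both, and it was not tested. How reads in overlapping genes were assigned is not given in the sources used here.

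Cxcr3, the receptor of CXCL9, CXCL10 and CXCL11 known from T and NK cells, lies on chromosome X (101731535 to 101734269, minus strand) and has 1 transcript of 1731 bases. In M-MDSCs it was 0.27 and 0.21 FPKM under vehicle, 0.06 and 0.08 under MS-275 and listed at 0 and 0.07 under CXD101, no more than about 4 reads in a library. PMN-MDSCs had 0.16 and 0.25 FPKM under vehicle, 0.93 and 0.44 under MS-275 and 0.83 and 1.28 under CXD101, or about 2 and 3, 11 and 5, and 11 and 15 reads. It reached 1 FPKM in 1 library and was not tested. Without the filter, limma gave a log2 difference of 0.76 (adjusted p = 0.0265) under CXD101 and 0.47 (adjusted p = 0.0899) under MS-275 in PMN-MDSCs. Of the 11 T and NK cell genes listed and measured, Cd3d was 0.20 and 0.72 FPKM under vehicle and 1.82 to 2.32 under the inhibitors in PMN-MDSCs, while Ncr1 and Gzma were at 0 in all 12 libraries. Cd3d passed the filter only through the inhibitor libraries. Other genes of the list did not share its direction in PMN-MDSCs and were not tested. From vehicle to MS-275 and CXD101, mean Lck went from 0.09 FPKM to 0.37 and 0.39, and Cd247 from 0.15 to 0.04 and 0.05. Cd8a went from 0.16 to 0.09 and 0.21, and Cd3g from 0.21 to 0.40 and 0.15. Most of the list's summed level in PMN-MDSCs, 10.96 to 13.4 FPKM under vehicle, 9.68 to 11.3 under MS-275 and 7.17 to 8.01 under CXD101, was Ccl5, which other cells also make. PMN-MDSC sums of the 10 genes without Ccl5 were 0.71 to 1.46 FPKM under vehicle, 2.90 to 3.78 (MS-275) and 2.50 to 3.40 (CXD101). In M-MDSCs they were 0.27 to 0.41, 1.57 to 1.79 and 0.69 to 1.08 in that order. Under the inhibitors, the largest part of the PMN-MDSC sums was Cd3d, with means of 2.313 and 1.996 FPKM under MS-275 and CXD101. In M-MDSCs it was Lck, whose mean went from 0.078 FPKM to 1.058 and 0.4755. Mean Cd3d went from 0.042 to 0.374 and 0.134 there, while Cd3e, Cd3g, Cd8a and Cd4 stayed at means of at most 0.0902. These sums therefore do not show a rise of the whole list. The part of T and NK cells in the Cxcr3 values was not tested.

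Counted over the 8 receptors, 6 were tested in M-MDSCs. Of these, 3 were called under MS-275 (Cxcr2 and Cxcr4 higher, Ccr7 lower), where 17.5% of all genes tested were called, and the same 3 under CXD101, where 8.13% were. In PMN-MDSCs 7 were tested and 5 called under MS-275, beside 28.7% of all genes, and 5 under CXD101, beside 21.4%, with Cxcr2 and Cxcr4 higher and Ccr7, Ccrl2 and Cx3cr1 lower in each. The filter fixed the direction of Cx3cr1 in PMN-MDSCs and favored that of Ccr7 in M-MDSCs, so that the counts were read no further. The median log2 difference of the tested receptors was 0.21 and 0.19 in M-MDSCs and -0.35 and -0.44 in PMN-MDSCs under MS-275 and CXD101, against -0.06, -0.02, -0.03 and -0.03 over all genes tested. Cx3cr1 was among the 7 in PMN-MDSCs, where the median was the value of Ccr2, and Ccr7 was among the 6 in M-MDSCs. The medians were therefore read no further either. Both inhibitors were compared with the same vehicle libraries, so that these counts are not independent of each other. At a fold change above 2, 1 receptor in M-MDSCs under CXD101 and 3 in PMN-MDSCs under each inhibitor remained called.

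**Figure D2:**
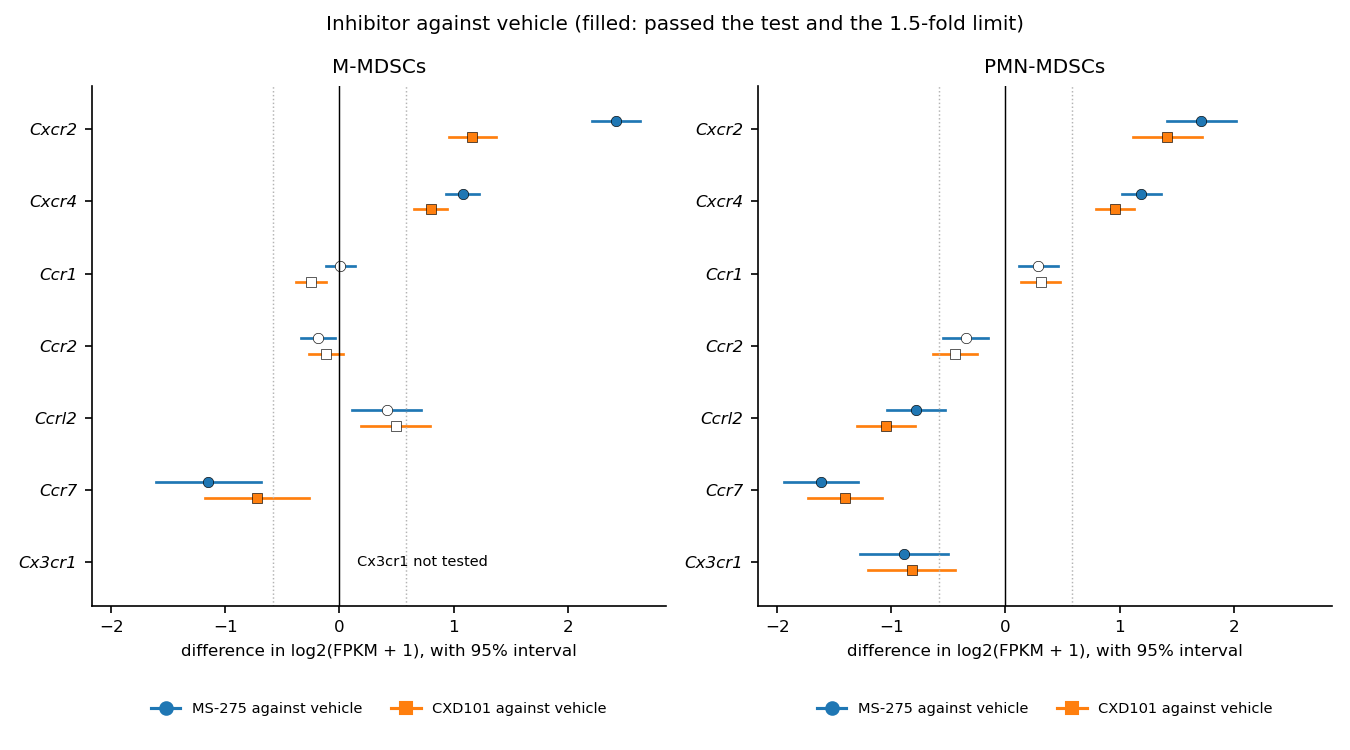
Difference in log2(FPKM + 1) between inhibitor and vehicle for 7 receptor genes (horizontal axis) in M-MDSCs and PMN-MDSCs, with 95% intervals from limma over 2 libraries per group. Filled symbols passed the test and the 1.5-fold limit (dotted lines), and Ccrl2 lies right of 0 in M-MDSCs and left of 0 in PMN-MDSCs.

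MS-275 and CXD101, given at the same dose and for the same time as far as the schedule is stated, were then compared directly, as 1 pair of compounds in each cell type. In M-MDSCs, 1 of 6 receptors was called, Cxcr2, which was 20.8 and 19.7 FPKM under MS-275 and 8.0 and 7.75 under CXD101, a log2 difference of 1.26 (SE 0.09, adjusted p = 3.95e-04). The background was 4.4% of all genes. Cxcr4 (0.28, SE 0.06, adjusted p = 0.0251) and Ccr1 (0.26, SE 0.06, adjusted p = 0.0221) were higher under MS-275 by less than 1.5-fold. Ccr7 differed by -0.43 (95% interval -0.89 to 0.03), Ccr2 by -0.07 (-0.22 to 0.08, and 0.03 under quantile normalization) and Ccrl2 by -0.08 (-0.38 to 0.22). In PMN-MDSCs, 0 of 7 receptors passed limma's test, beside 0.805% of all genes, and 2 had an unadjusted p under 0.05, Cxcr4 (0.23, 95% interval 0.07 to 0.40) and Ccrl2 (0.26, 0.01 to 0.51). The interval of Cxcr2 ran from -0.01 to 0.60 there, that of Ccr7 from -0.54 to 0.11, and those of Ccr1 and Ccr2 from -0.19 to 0.15 and from -0.10 to 0.29. Both libraries of MS-275 lay above both of CXD101 for Cxcr2 and Cxcr4 in each cell type. In PMN-MDSCs the libraries also separated for Ccr2 and Ccrl2 (higher under MS-275) and for Ccr7 and Cx3cr1 (lower), and none of these was called. Separation of the libraries was therefore read no further.

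An interaction term, fitted to the 12 libraries together, tested whether the cell types responded differently. Under MS-275, 3 of 7 receptors were called, beside 18.1% of all genes, and under CXD101 1 of 7, beside 13.9%. Ccrl2 had a response lower in PMN-MDSCs than in M-MDSCs by a log2 difference of -1.20 (SE 0.17, adjusted p = 6.14e-04) under MS-275 and -1.54 (SE 0.17, adjusted p = 2.38e-04) under CXD101. On the log2 scale, Cxcr2 rose by more in M-MDSCs than in PMN-MDSCs under MS-275, by a difference of -0.71 (SE 0.17, adjusted p = 0.00929). This fell under the 1.5-fold limit without replicate 2 of the PMN-MDSC vehicle group (-0.49). In FPKM the rise was larger in PMN-MDSCs, from a mean of 94.9 to 310.8, against 2.96 to 20.2 in M-MDSCs. Under CXD101 the difference for Cxcr2 was 0.25 (95% interval -0.11 to 0.62). Cx3cr1 differed by -0.91 (SE 0.22, adjusted p = 0.0104) under MS-275, again with the filter passed only by vehicle PMN-MDSCs. Ccr1 differed by 0.56 under CXD101 (SE 0.09, adjusted p = 0.00174), just under the limit, and passed it without M-MDSC CXD101 replicate 1 (0.59), PMN-MDSC vehicle replicate 2 (0.64) or PMN-MDSC CXD101 replicate 1 (0.59). For Cxcr4 the difference was 0.11 under MS-275 (95% interval -0.10 to 0.32), with the opposite sign under quantile normalization (-0.02), and 0.16 under CXD101 (-0.05 to 0.37). For Ccr7 the difference was -0.47 (-1.02 to 0.08) under MS-275, with the opposite sign at a pseudocount of 0.1 (0.15), and -0.68 (adjusted p = 0.0727) under CXD101, which passed without M-MDSC CXD101 replicate 2 (-0.92, adjusted p = 0.0258).

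**Figure D3:**
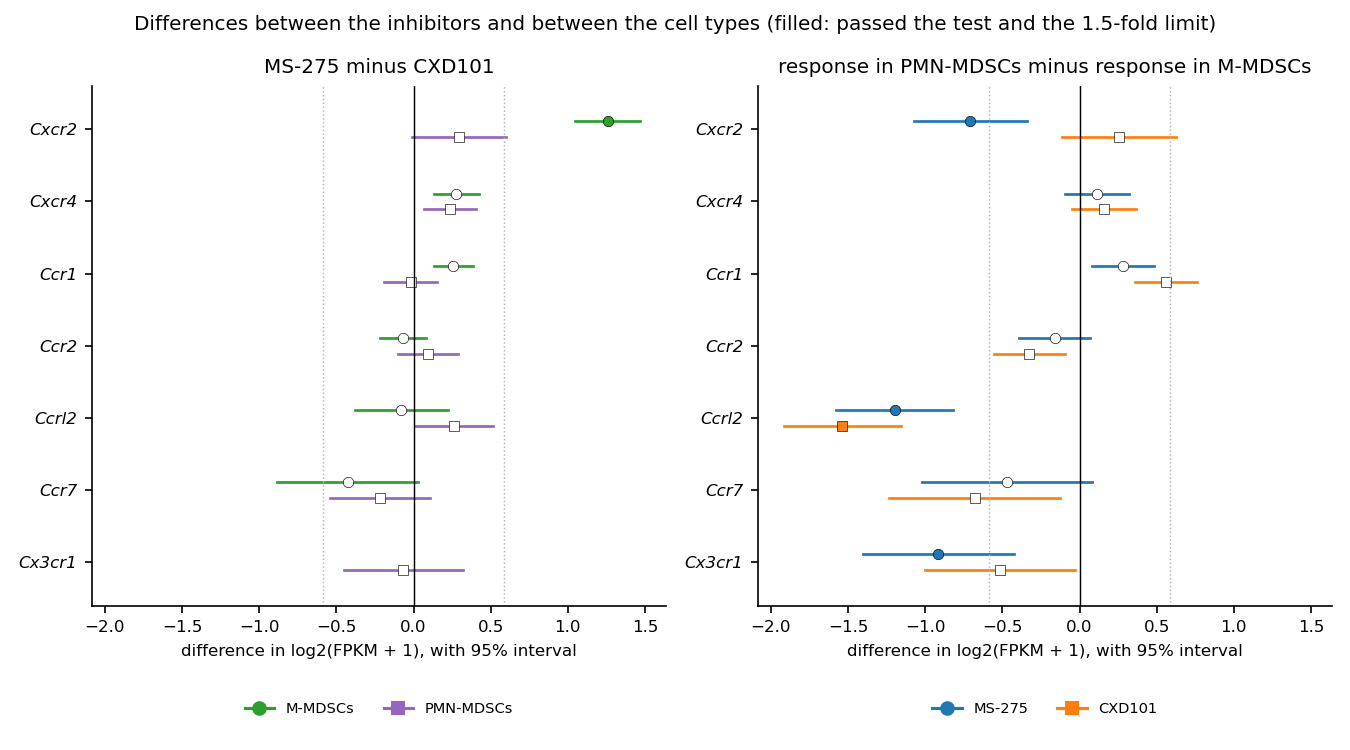
Differences in log2(FPKM + 1) (horizontal axes) with 95% intervals from limma over 2 libraries per group, for MS-275 minus CXD101 in each cell type (left) and for the response of PMN-MDSCs minus that of M-MDSCs under each inhibitor (right). Filled symbols passed the test and the 1.5-fold limit (dotted lines): Cxcr2 of M-MDSCs on the left, and Ccrl2 under each inhibitor and Cxcr2 and Cx3cr1 under MS-275 on the right.

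Of 18 other chemokine receptor genes listed, 13 were under 1 FPKM in all 12 libraries, and Ccr8 and Ackr1 were at 0 in every library. In M-MDSCs, 2 were tested and 1 was called under each inhibitor, and in PMN-MDSCs 4 were tested and 3 called under each, 2 of them under MS-275 (Ccr3 and Ccr10) and 1 under CXD101 (Ccr10) at 1 FPKM in 1 group only. Beside these and the following lists stand the shares of all genes called, 17.5% under MS-275 and 8.13% under CXD101 in M-MDSCs and 28.7% and 21.4% in PMN-MDSCs. Cmklr1, the signaling receptor of chemerin, was 10.99 and 11.5 FPKM in vehicle M-MDSCs and 4.44 to 5.77 under the inhibitors, and 39.0 and 36.5 FPKM in vehicle PMN-MDSCs and 7.77 to 10.7 under the inhibitors. It was lower in all 4 comparisons, with log2 differences of -0.99 and -1.06 in M-MDSCs and -1.93 and -1.82 in PMN-MDSCs under MS-275 and CXD101 (limma adjusted p = 4.29e-04, 8.70e-04, 3.03e-05 and 6.43e-05). Ccr10, a receptor known from skin-homing lymphocytes, was listed at 0 in both vehicle PMN-MDSC libraries, at 1.80 and 2.77 FPKM under MS-275 and at 1.23 and 1.26 under CXD101.

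Of 22 chemokine genes listed as ligands of these receptors, 11 were tested in M-MDSCs and 12 in PMN-MDSCs. In M-MDSCs, 2 were higher and 3 lower under each inhibitor, and in PMN-MDSCs 3 higher and 4 lower under MS-275 and 2 higher and 5 lower under CXD101. The shares of all genes called were 17.5%, 8.13%, 28.7% and 21.4%, and 2, 1, 1 and 1 of the called ligands reached 1 FPKM in only 1 of the groups compared. The list medians were -0.05, -0.31, -0.32 and -0.50 on the log2 scale in that order. Ligands of CXCR2 were among those that rose. Cxcl3 was 5.02 and 3.16 FPKM in vehicle M-MDSCs, 18.7 and 30.3 under MS-275 and 9.65 and 9.83 under CXD101, and in PMN-MDSCs 36.9 and 40.1, 307 and 271, and 159 and 152. Ppbp was 0.87 FPKM in 1 vehicle library of M-MDSCs and listed at 0 in the other, against 13.7 and 13.4 under MS-275 and 4.98 and 4.33 under CXD101, so that it passed the filter there only through the inhibitor libraries, and rose in PMN-MDSCs as well. Cxcl2 was higher in PMN-MDSCs under MS-275 (log2 difference 0.89, adjusted p = 2.81e-05), from 165 and 155 FPKM to 301.1 and 295.1.

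Ligands of CCR2 were among those that fell. Ccl2 was 31.0 and 33.9 FPKM in vehicle M-MDSCs, 6.85 and 6.31 under MS-275 and 16.7 and 14.5 under CXD101, and in PMN-MDSCs 92.7 and 81.9, 2.81 and 6.36, and 14.3 and 16.6. The log2 differences of Ccl2 to vehicle were -2.14 and -1.01 in M-MDSCs and -4.06 and -2.43 in PMN-MDSCs. Ccl2 was lower under MS-275 than under CXD101 in each cell type (-1.13 and -1.63, adjusted p = 5.53e-04 and 0.0379), as was Ccl7, another CCR2 ligand (-0.96 and -1.34, adjusted p = 0.0150 and 0.0234). Under MS-275, however, Ccl7 did not reach 1 FPKM in either cell type. It passed the filter only through groups where it was higher, so that a lower value under MS-275 was in part built in. In vehicle PMN-MDSCs Ccl7 was 10.2 and 8.90 FPKM, against 0.44 and 0.42 under MS-275. Ccl6, a ligand of CCR1 and the most abundant of the listed chemokines, was 2014 and 2059 FPKM in vehicle M-MDSCs and 8273 and 8539 in vehicle PMN-MDSCs. It fell by 0.75 and 0.59 on the log2 scale in M-MDSCs under MS-275 and CXD101 and by 0.72 in PMN-MDSCs under MS-275. Cxcl12, the CXCR4 ligand, and Ccl19, a CCR7 ligand, were each above 0 in 1 library, and Ccl21a, Ccl8 and Cxcl11 were at 0 in all 12.

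**Figure D4:**
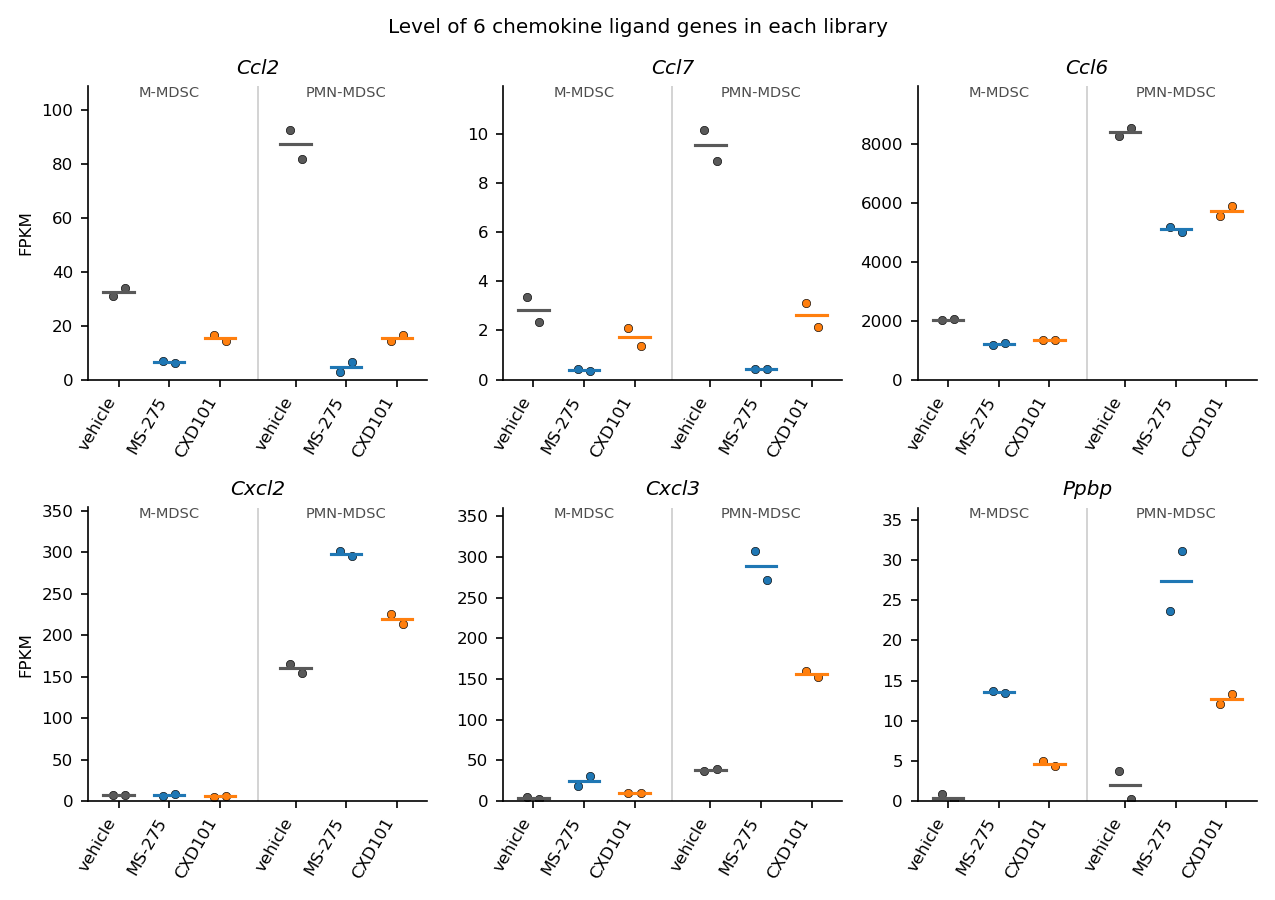
FPKM (vertical axes, each starting at 0) of 6 ligand genes in every library, by cell type and treatment on the horizontal axis, with lines at the group means. Ccl2 and Ccl7 of PMN-MDSCs drop from the vehicle libraries to both inhibitors, and Cxcl3 and Ppbp sit above vehicle in each cell type.

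Of 31 genes of receptor signaling (G proteins, receptor kinases, arrestins, RGS proteins, PI3K gamma subunits and others), 30 were tested in each cell type. In M-MDSCs, the called genes were 4 under MS-275 and 2 under CXD101, each of them lower, beside 17.5% and 8.13% of all genes called. In PMN-MDSCs, 2 were higher and 1 lower under MS-275, and 1 higher and 2 lower under CXD101, beside 28.7% and 21.4% of all genes. Grk5, a kinase that desensitizes G protein-coupled receptors, was lower in all 4 comparisons, from 11.9 and 11.6 FPKM to 5.07 to 6.52 in M-MDSCs and from 24.6 and 24.8 to 14.6 to 17.2 in PMN-MDSCs. Pik3r5, the regulatory subunit of PI3K gamma, was lower in M-MDSCs under MS-275 (log2 difference -1.07) and CXD101 (-0.63). Pik3cg, its catalytic subunit, was 29.0 and 32.4 FPKM in vehicle PMN-MDSCs and 45.7 to 56.2 under the inhibitors (0.82 and 0.62), while in M-MDSCs it stayed at 23.4 to 25.3. The response differed between the cell types under MS-275 (0.75, adjusted p = 4.97e-04) and CXD101 (0.63, adjusted p = 0.00189).

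Of 10 other chemoattractant receptors, 3 of 9 tested were called in M-MDSCs under MS-275 and 1 under CXD101, and in PMN-MDSCs 7 and 5 of 10, beside 17.5%, 8.13%, 28.7% and 21.4% of all genes. C3ar1, the receptor of complement C3a, was lower in all 4, from 14.2 and 14.9 FPKM to 6.53 to 7.51 in M-MDSCs and from 26.7 and 27.1 to 13.5 to 17.1 in PMN-MDSCs. Ltb4r1, a receptor of leukotriene B4, was 64.4 and 60.2 FPKM in vehicle PMN-MDSCs and 164 to 185 under the inhibitors, and S1pr4, a receptor of sphingosine-1-phosphate, rose from 20.1 and 18.6 to 34.6 to 42.5. S1pr1 rose from 0.88 and 1.15 FPKM to 4.21 to 5.18 there. In M-MDSCs S1pr1 was under 1 FPKM in every library. Ltb4r1 and S1pr4 had a higher response in PMN-MDSCs than in M-MDSCs under each inhibitor (interaction of 0.76 to 1.17 on the log2 scale, adjusted p = 3.37e-04 to 0.00744).

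The genes whose log2(FPKM + 1) over the 12 libraries was most like each receptor were taken from those with a group mean of at least 5 FPKM. They were 5830416P10Rik, Dusp6 and Siglece for Cxcr2 (Pearson r of 0.998, 0.996 and 0.995), Tjp3, Limk2 and Thbs1 for Cxcr4 (0.992, 0.989 and 0.988), and Rnh1, Zfand2a and Fam50a for Ccr7 (0.98, 0.979 and 0.979). For Ccrl2 they were Ppm1n, Cd300lf and Mllt6 (0.983, 0.978 and 0.977), for Ccr1 Lilr4b, Dhrs9 and Ndst1 (0.997 each) and for Ccr2 Gars, Topbp1 and Ndc1 (0.998, 0.997 and 0.997). Cx3cr1 had Mitf, Slc3a2 and Gm2a (0.917, 0.915 and 0.908) and Cxcr3 had Tmx3, Copg2 and Lims1 (0.942, 0.936 and 0.924). These values are descriptions, since the 12 points share 6 groups and most of the spread lies between the cell types and treatments.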

How the data were processed

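RNA was sequenced as 101-base single-end reads from stranded mRNA libraries. Per the submitters' processing notes, TopHat2 2.1.1, Bowtie2 2.2.8, SAMtools 0.1.18 and Cuffdiff 2.2.1 were used with mm10. The annotation and the use of strand are not given in the sources used here. The authors deposited 1 table of FPKM per library (fragments per kilobase of transcript, scaled to library size), which was used as it stood.

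From these tables, log2(FPKM + 1) was compared with limma 3.58.1 in R 4.3.3 (linear model, moderated variances with an intensity trend). A gene entered a test where 2 or more libraries reached 1 FPKM, and p-values were adjusted by Benjamini-Hochberg over all of them. M-MDSCs (11078 genes) and PMN-MDSCs (11184 genes) were each fitted with their 6 libraries. PMN-MDSCs against M-MDSCs and the differences in response were fitted with all 12 (11662 genes). The scripts were tested on simulated data. A log scale with a pseudocount of 1 shrinks differences of genes near or under 1 FPKM.

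Depth was estimated from the steps between FPKM values under 0.5 of genes with 1 transcript of at least 1000 bases, taking 200 bases off each length. The estimate is sequencing depth only if FPKM was scaled to each library's own total. Read numbers derived from this estimate assume GENCODE vM21 lengths and cover counting only. Positions are from GENCODE vM21 (GRCm38) and promoter windows from RefSeq (GRCm38.p6), which held 7 of the 8 receptors.

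The receptors and gene lists were chosen with earlier results of these data known. All 8 receptors are named, and of each pathway list at most 4 called genes of largest change per comparison, besides marker genes given as levels. Ccl6, Cxcl12, Ccl19, Cxcl2 and the low receptors are named as ligands or list members at the ends of the range, after their values were seen. Ly6g and Trac, also listed, were not analysed here. A result withheld from this text is not reported here.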

Additional observations from a re-analysis of the deposited data

Results flagged for a closer look

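The response of 3 receptor genes to an inhibitor differed between PMN-MDSCs and M-MDSCs by limma's test of the difference itself over 12 libraries, at an adjusted p under 0.05 and above 1.5-fold. For Ccrl2 the difference of the log2 changes, PMN-MDSCs minus M-MDSCs, was -1.20 under MS-275 and -1.54 under CXD101. For Cxcr2 it was -0.71 and for Cx3cr1 -0.91, both under MS-275. Each group held 2 libraries, and the Cx3cr1 value rested on the vehicle libraries of PMN-MDSCs.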

How the results depend on the processing

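Over the alternatives, 725 of 747 recomputed values of single receptors kept their direction and side of the threshold, 8 changed sign, 8 lost and 6 gained a call, and the cause was not tested. The sign changes concerned differences that were not called. Ccr2 between the inhibitors in M-MDSCs was 0.0297 under quantile normalization, from -0.07. The difference in response to MS-275 of Ccr7 depended on the pseudocount, at 0.15 with a pseudocount of 0.1, from -0.47. That of Cxcr4 was -0.0183 under quantile normalization, from 0.11. With 1 replicate left out, Ccr1 under MS-275 in M-MDSCs ranged from -0.0057 to 0.0202, Ccr1 between the inhibitors in PMN-MDSCs from -0.0697 to 0.0311, and Ccrl2 between the inhibitors in M-MDSCs from -0.1715 to 0.0143. In those fits an arm with 1 library was assumed to vary like the others.

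At FPKM of at least 5, 1269 genes instead of 1934 were called under MS-275 and 591 instead of 901 under CXD101 in M-MDSCs, and 268 instead of 487 between the inhibitors. Receptors below that level then gave no value. At a fold change over 2 these counts were 720, 261 and 134, and in PMN-MDSCs 1278 instead of 3214 under MS-275, 854 instead of 2394 under CXD101 and 40 instead of 90 between the inhibitors. PMN-MDSCs against M-MDSCs then gave 1543 instead of 3968, and the differences in response 694 instead of 2115 and 474 instead of 1620. Receptors called at that fold were 1 of 3 in M-MDSCs under CXD101, 3 of 5 in PMN-MDSCs under each inhibitor and 1 of 3 for the difference in response to MS-275. Between the inhibitors in PMN-MDSCs, 4 genes were called without a filter, 35 without an intensity trend and 151 with all 12 libraries in one model. With 1 replicate left out, that count was 10 to 23, and 308 to 388 in M-MDSCs. Receptors called for a difference in response then numbered 1 to 3 under MS-275 and 1 to 2 under CXD101, where 2 were called without a filter.

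Whether equal replicate numbers mark a shared animal or day is not given in the sources used here. The deviations of same-numbered libraries correlated at -0.126 to 0.179 over 15 pairs of groups. With the replicate number as a block, 1933 genes and 3 receptors were called under MS-275 in M-MDSCs, 470 and 1 between the inhibitors there, and 63 and 0 in PMN-MDSCs, and none of the 60 receptor results changed its call. A crossed pairing, added after seeing the data, gave 3224 genes under MS-275 in PMN-MDSCs and 3970 between the cell types. Precision is limited by 2 libraries per group and, for Ccr7, Cx3cr1 and Cxcr3, by few reads.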
